A study of Mus musculus with 18 samples.

Results

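The members described here are 4 receptors of the TNF superfamily that carry a cytoplasmic death domain: Tnfrsf1a, Fas, Tnfrsf10b and Tnfrsf25. They were chosen by gene name from the 76 genes of a cell death sgRNA library, and each is targeted by 3 sgRNAs, which gives 12 of the library's 252 sgRNAs. The library also holds 24 non-targeting sgRNAs.

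Death receptors sit in the plasma membrane and are engaged by trimeric ligands of the TNF family. Tnfrsf1a, the main TNF receptor of most cells, and Tnfrsf25, the receptor of the ligand Tnfsf15, recruit the adaptor Tradd and with it Ripk1, which can lead to survival signalling or to death. Fas, the receptor of Fas ligand, and Tnfrsf10b, the TRAIL receptor of the mouse, bind the adaptor Fadd directly and activate Casp8. Myeloid and lymphoid cells are a source of several of these ligands, which is why such receptors are candidates in a screen of killing by immune cells.

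The sgRNAs were counted in sensBa/F3 cells, labelled as Ba/F3, a murine pro-B line that depends on IL-3, in a screen titled as a test of how ITPK1, an inositol phosphate kinase, bears on IgA-dependent killing by neutrophils. The cells carried ITPK1 deletions (ITPK1-KO, a pool of 6 clones) or had ITPK1 intact (ITPK1-WT), and both received the same library and 10 days of culture. The backgrounds carried different tracking dyes (CellTrace yellow for ITPK1-KO, violet for ITPK1-WT), so the dye and the genotype cannot be told apart. They were mixed in equal parts, and 20000000 cells were injected into the peritoneum of each of 8 hCD89-transgenic mice, which express a human IgA receptor. Mice 5 to 8 received anti-human Her2 IgA and mice 1 to 4 PBS (vehicle). Viable cells were recovered after 16 h and sorted by dye, giving 4 libraries each of ITPK1-KO cells from IgA mice, ITPK1-KO cells from vehicle mice, ITPK1-WT cells from IgA mice and ITPK1-WT cells from vehicle mice. A further library of each background was made before injection, with no replicate.

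Libraries held 317564 to 808586 reads, and the 12 sgRNAs took 4.96% to 5.16% of them. Each of the 12 had 638 to 5593 reads in every recovered library, so none was lost to a filter on low counts. Between 657000 and 2000000 cells were sorted per recovered library. All 8 vehicle libraries came from 2000000 cells, whereas only 2 of the 8 IgA libraries did. The part of that imbalance in the IgA comparisons was not tested.

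The spacers that the results below turn on are those of Tnfrsf1a and Tnfrsf10b, whose 3 sgRNAs gave unlike values, and the Tnfrsf25 sgRNA that differed between backgrounds. They are written 5′ to 3′, and capitals mark bases 9 to 20, the 12 bases next to the PAM.
Tnfrsf1a sg-1: agttgcaaGACATGTCGGAA
Tnfrsf1a sg-2: agacctagCAAGATAACCAG
Tnfrsf1a sg-3: gatggggaTACATCCATCAG
Tnfrsf10b sg-1: tagaatgtACCTGCTAGACA
Tnfrsf10b sg-2: aaatgactCTAACCACAACA
Tnfrsf10b sg-3: acggtgtgTCGATGCAAACC
Tnfrsf25 sg-2: cctggactTACCAGTGACCA
RefSeq places Tnfrsf1a on mouse chromosome 6, Fas on 19, Tnfrsf10b on 14 and Tnfrsf25 on 4. The files name no genome build and no genome sequence was used here, so the cut sites were not placed in exons. The GC content of the 12 spacers ran from 35% to 60%, around a median of 50% over all sgRNAs of the library. Each spacer differed from the nearest other spacer of the library at 8 to 10 of its 20 positions.

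Before injection the 4 receptors stood at different levels, which were nearly alike in both backgrounds. Levels are given here as the reads of a gene's 3 sgRNAs in percent of 3 times the mean non-targeting sgRNA. Fas stood at 89.8% in ITPK1-KO cells and 87.2% in ITPK1-WT cells, the 8th highest of 76 genes in each. Tnfrsf25 followed with 85.4% in ITPK1-KO cells and 79.9% in ITPK1-WT cells. Tnfrsf10b had 66.0% in ITPK1-KO cells and 64.8% in ITPK1-WT cells, and Tnfrsf1a had 56.9% in ITPK1-KO cells and 59.2% in ITPK1-WT cells. The low place of Tnfrsf1a came largely with sg-3, which had 958 reads in the ITPK1-KO library and 1024 in the ITPK1-WT library, against 1898 to 2332 reads for sg-1 and sg-2. These levels have no replicate, and the composition of the transduced library itself was not analysed here, so they cannot be read as an effect of losing a receptor.

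In recovered cells, levels are the summed counts of the 3 sgRNAs in CPM (read counts brought to a common library total, with TMM factors over the 16 recovered libraries). Tnfrsf1a averaged 10222 ± 127 CPM in ITPK1-KO cells of IgA mice, 9815 ± 344 in ITPK1-KO cells of vehicle mice, 10561 ± 127 in ITPK1-WT cells of IgA mice and 10104 ± 188 in ITPK1-WT cells of vehicle mice (SD, n = 4 each). Fas averaged 15684 ± 159 CPM in ITPK1-KO cells of IgA mice, 15884 ± 389 in ITPK1-KO cells of vehicle mice, 15554 ± 314 in ITPK1-WT cells of IgA mice and 15476 ± 334 in ITPK1-WT cells of vehicle mice. The 4 Fas groups all overlapped one another. For Tnfrsf1a the IgA groups lay above the vehicle group of their own background on this scale, in ITPK1-KO cells only just (10098 against 10096 CPM). Tnfrsf10b averaged 11061 ± 73.0 CPM in ITPK1-KO cells of IgA mice, 10633 ± 286 in ITPK1-KO cells of vehicle mice, 11192 ± 275 in ITPK1-WT cells of IgA mice and 10985 ± 199 in ITPK1-WT cells of vehicle mice. Tnfrsf25 averaged 13984 ± 95.4 CPM in ITPK1-KO cells of IgA mice, 14164 ± 150 in ITPK1-KO cells of vehicle mice, 13872 ± 183 in ITPK1-WT cells of IgA mice and 13727 ± 265 in ITPK1-WT cells of vehicle mice. For each of these 4 genes the highest and the lowest group mean differed by less than 8%.

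**Figure D1:**
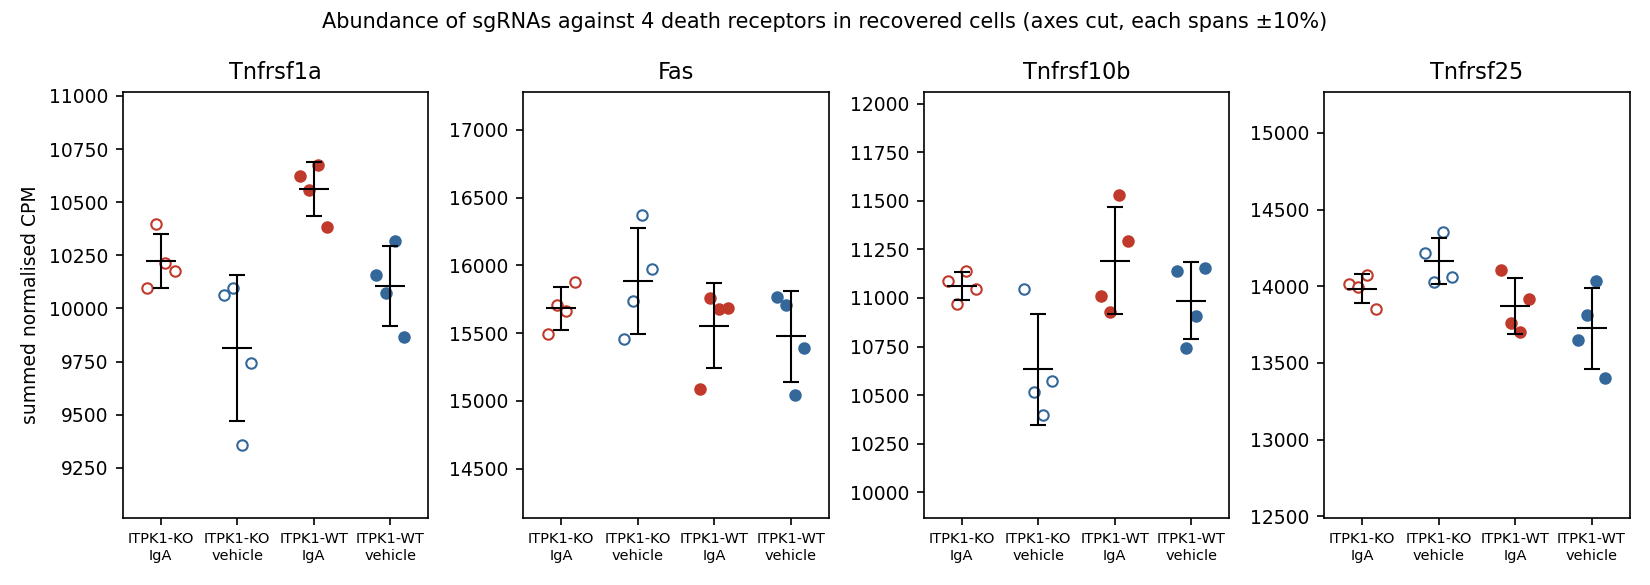
Summed normalised CPM (vertical axes cut, each spanning 10% above and below its centre) of the 3 sgRNAs against each receptor, by background and treatment. Points are mice, and bars the mean ± SD of 4 mice. With TMM factors over the 16 recovered libraries, all 4 IgA mice lie above all 4 vehicle mice for Tnfrsf1a in each background. In ITPK1-KO cells this is by a hair (10098 against 10096 CPM), and it is lost with factors from the ITPK1-KO libraries alone.

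The first comparison asked whether cells carrying sgRNAs against a death receptor were more or less frequent among survivors of IgA treatment, within each background. The counts do not measure loss of the receptor itself. In ITPK1-KO cells no receptor passed the threshold at the gene level, and the highest values were 1.04-fold over vehicle mice for both Tnfrsf1a and Tnfrsf10b. With edgeR's quasi-likelihood test and an adjusted p under 0.05, 0 of 4 receptors were called, against 13.2% of all 76 genes. Before adjustment 2 of the 4 had p under 0.05, against 27.6% of all genes. The DESeq2 Wald test called the same 2, and limma called 0.

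Tnfrsf1a in ITPK1-KO cells had 10098, 10398, 10216 and 10178 CPM in IgA mice 5 to 8, against 10063, 10096, 9358 and 9742 CPM in vehicle mice 1 to 4. On this scale the groups did not overlap, but mouse 5 of the IgA group and mouse 2 of the vehicle group lay next to each other. Their order rests on the TMM factors over all 16 recovered libraries (0.998 for mouse 5, 1.001 for mouse 2). With factors from the ITPK1-KO libraries alone, as in the test, both are 0.998. Mouse 2 then lies above mouse 5, so the groups overlap. The log2 fold change was 0.058 (SE 0.024, 95% CI 0.0083 to 0.108, edgeR adjusted p = 0.122). With the factors over all 16 libraries, groups without overlap occurred for 22.4% of all genes in this comparison.

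Tnfrsf10b in ITPK1-KO cells had 11086, 10968, 11141 and 11048 CPM in IgA mice, against 11048, 10513, 10397 and 10573 CPM in vehicle mice. Mouse 1 of the vehicle group stood among the IgA mice, and the other 3 vehicle mice lay below them. The log2 fold change was 0.058 (SE 0.020, 95% CI 0.015 to 0.101, edgeR adjusted p = 0.0669). Without mouse 1 it was 0.076 and past the threshold (edgeR adjusted p = 0.00932). With all mice kept, the DESeq2 Wald test also called it (0.058, adjusted p = 0.0270).

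Fas and Tnfrsf25 lay close to 0 in ITPK1-KO cells. Fas had a log2 fold change of -0.015 (95% CI -0.050 to 0.021, edgeR adjusted p = 0.604). Tnfrsf25 had one of -0.015 (95% CI -0.047 to 0.017, edgeR adjusted p = 0.579). The intervals leave room for a change of a few percent in either direction and for none as large as those of the library's extremes, which ran from -0.26 to 0.24.

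Single sgRNAs were less uniform than the sums. In ITPK1-KO cells 2 of the 12 sgRNAs were called higher in IgA than in vehicle mice and none lower. Over the library 10.4% of all sgRNAs were called, 5.58% as higher. The first was Tnfrsf10b sg-2, with 4530.0, 4347, 4367 and 4579 CPM in IgA mice against 4137, 4110.1, 4106 and 3808 CPM in vehicle mice. Every IgA mouse lay above every vehicle mouse. Groups without overlap occurred for 30 of the 251 sgRNAs tested in this comparison. The log2 fold change of Tnfrsf10b sg-2 was 0.15 (SE 0.035, 1.11-fold, edgeR adjusted p = 0.000397). It stayed past the threshold in all 15 alternatives tried, of which 1, described below with the sample numbers, leaves a single IgA library.

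The second was Tnfrsf1a sg-2, with 3827, 4029, 3815 and 3753 CPM in IgA mice against 3653, 3706, 3252 and 3523 CPM in vehicle mice. The groups did not overlap, and mouse 3 of the vehicle group was lowest. Its log2 fold change was 0.12 (SE 0.038, 1.09-fold, edgeR adjusted p = 0.0168). The call was lost without mouse 3 (0.093, edgeR adjusted p = 0.134), without mouse 4 (0.12, adjusted p = 0.0518) and without mouse 6 (0.10, adjusted p = 0.108).

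The other sgRNAs against the same 2 receptors did not pass the test in ITPK1-KO cells. For Tnfrsf10b the log2 fold change was 0.022 with sg-1 and -0.025 with sg-3. For Tnfrsf1a it was 0.042 with sg-1 and -0.027 with sg-3. The positive value of each summed count therefore came mainly from 1 sgRNA of 3.

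**Figure D2:**
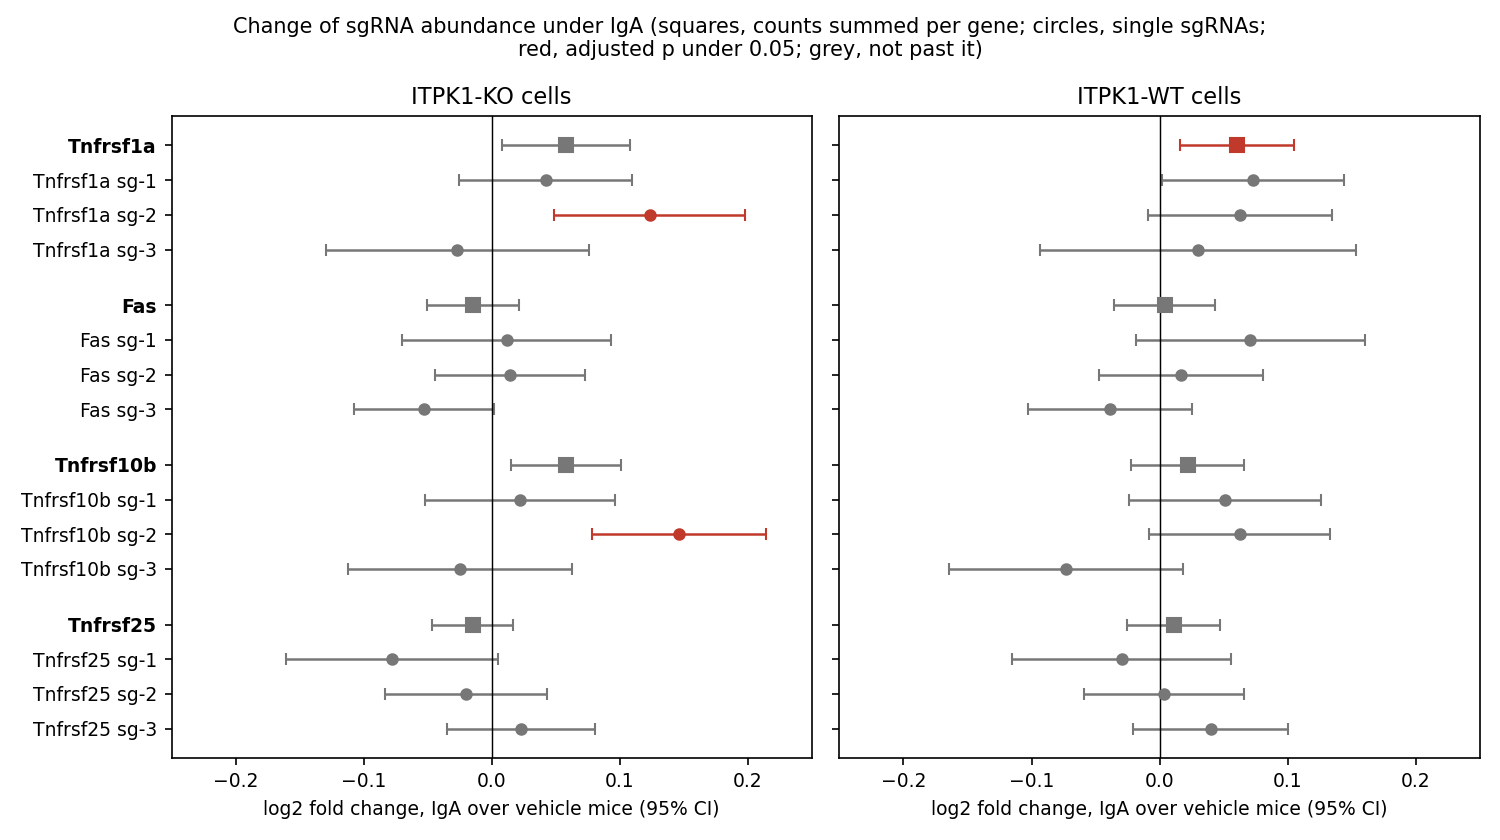
Log2 fold change of IgA over vehicle mice, with its 95% CI, for the summed counts of each receptor (squares) and each sgRNA (circles), in ITPK1-KO cells (left) and ITPK1-WT cells (right). Red marks an edgeR adjusted p under 0.05: Tnfrsf1a sg-2 and Tnfrsf10b sg-2 in ITPK1-KO cells and the Tnfrsf1a sum in ITPK1-WT cells.

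In ITPK1-WT cells Tnfrsf1a was the 1 receptor of 4 that rose under IgA, 1.04-fold, while 36.8% of all 76 genes passed the same test, 21.1% as higher. Tnfrsf1a had 10625, 10559, 10675 and 10384 CPM in IgA mice, against 10159, 10074, 10317 and 9866 CPM in vehicle mice. All IgA mice lay above all vehicle mice, with mouse 8 of the IgA group and mouse 3 of the vehicle group closest, and such groups without overlap made up 30.3% of all genes. Its log2 fold change was 0.061 (SE 0.022, 95% CI 0.016 to 0.105, edgeR adjusted p = 0.0280). Its 3 sgRNAs all lay above 0, at 0.073, 0.063 and 0.030 for sg-1 to sg-3. The call was lost without mouse 2, 4, 5 or 7, with values of 0.049 to 0.060 and adjusted p up to 0.105, and with limma on the mean of the sgRNAs (0.054, adjusted p = 0.0639).

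The other 3 receptors did not pass the threshold in ITPK1-WT cells. Tnfrsf10b had a log2 fold change of 0.022 (95% CI -0.022 to 0.066, edgeR adjusted p = 0.423). Tnfrsf25 had 0.011 (95% CI -0.025 to 0.047, edgeR adjusted p = 0.632). Fas had 0.0039 (95% CI -0.035 to 0.043, edgeR adjusted p = 0.863), and its 3 sgRNAs ran from -0.039 to 0.071.

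Of the 12 sgRNAs, edgeR called 0 in ITPK1-WT cells, where 27.8% of all 252 sgRNAs were called. At an unadjusted p under 0.05, 1 passed, Tnfrsf1a sg-1, against 38.1% of all sgRNAs, and the DESeq2 Wald test called 0. Their median log2 fold change was 0.035, against -0.00099 over all sgRNAs. Tnfrsf10b sg-2, which rose in ITPK1-KO cells, had 0.062 here (edgeR adjusted p = 0.186), and Tnfrsf10b sg-3 had -0.073 (adjusted p = 0.243).

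What counts as no change mattered in ITPK1-WT cells. The 24 non-targeting sgRNAs had a median log2 fold change of -0.059 in ITPK1-WT cells (range -0.21 to 0.16) and of -0.012 in ITPK1-KO cells (range -0.17 to 0.10) on the scale of the whole library. In ITPK1-WT cells 9 of the 24, or 37.5%, were themselves called. With libraries scaled to these controls instead, all 4 receptors rose in ITPK1-WT cells: Tnfrsf1a by 0.129, Tnfrsf10b by 0.091, Tnfrsf25 by 0.080 and Fas by 0.073 on the log2 scale. That scaling also called 55.3% of all genes, 40 higher and 2 lower, against 16 higher and 12 lower on the library scale. It called 7 of the 12 sgRNAs, against 37.7% of all sgRNAs. In ITPK1-KO cells it called Tnfrsf1a (0.071, edgeR adjusted p = 0.0423) and Tnfrsf10b (0.071, adjusted p = 0.0251), where 18.4% of all genes were called.

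The read-file names carry 2 series of sample numbers, which split the mice partly by treatment. Mice 1 to 5 carry the first series, and mice 6 to 8, all treated with IgA, the second. The 2 libraries from before injection also carry the second. With the series as a covariate the IgA effect rests on mouse 5 alone against the vehicle mice, and the fit takes the spread of that 1 library to be like that of the others. Tnfrsf10b sg-2 in ITPK1-KO cells was then 0.17 (edgeR adjusted p = 0.0314). Tnfrsf1a in ITPK1-WT cells was 0.066 (adjusted p = 0.206), and Tnfrsf1a sg-2 in ITPK1-KO cells was 0.11 (adjusted p = 0.591).

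The second question of the design was whether the IgA effect on sgRNAs against a receptor differed between ITPK1-KO and ITPK1-WT cells. No difference was called for the receptors. The interaction term, the IgA effect in ITPK1-KO cells minus that in ITPK1-WT cells, was past the threshold for 0 of 4 receptors, against 6.58% of all genes, and for 0 of 12 sgRNAs, against 3.97% of all sgRNAs. None passed at an unadjusted p under 0.05 in edgeR, against 13.2% of all genes and 11.5% of all sgRNAs. The DESeq2 Wald test also called 0. The difference was -0.0082 for Tnfrsf1a (95% CI -0.074 to 0.058), -0.024 for Fas (95% CI -0.077 to 0.028), 0.031 for Tnfrsf10b (95% CI -0.031 to 0.092) and -0.032 for Tnfrsf25 (95% CI -0.080 to 0.016). The difference for Tnfrsf10b sg-2, the sgRNA called in ITPK1-KO cells alone, was 0.078 (95% CI -0.020 to 0.18, edgeR adjusted p = 0.690). Its call in one background is thus not shown to be particular to that background. The intervals of the 4 genes reach at most 0.092 above 0 and 0.080 below it, and smaller differences between backgrounds cannot be told from none with 4 mice per treatment.

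**Figure D3:**
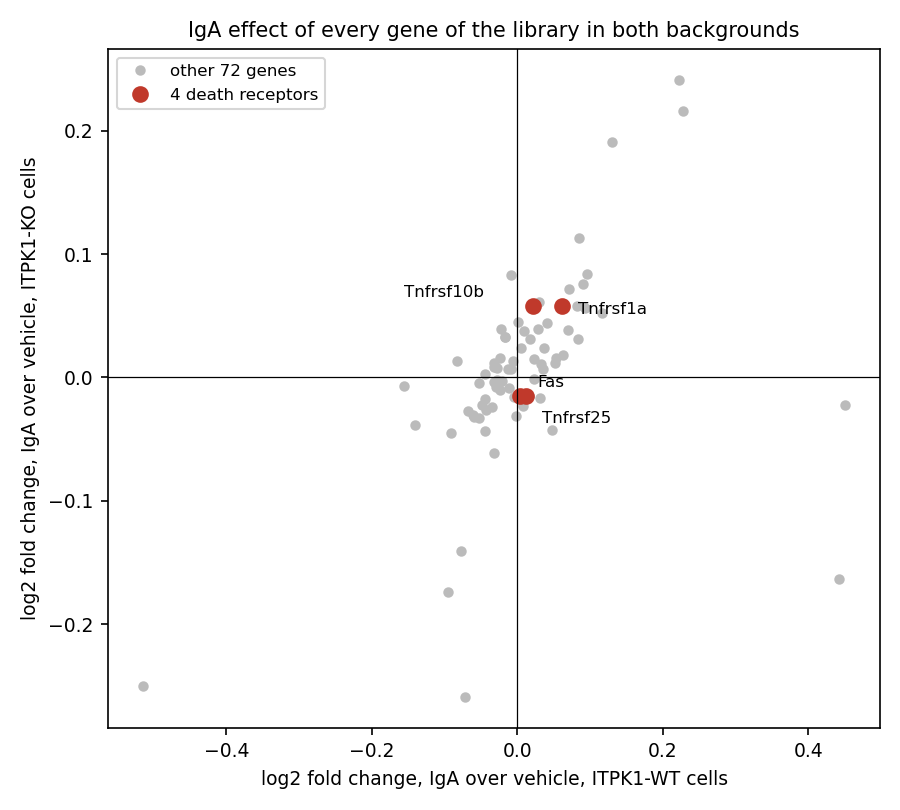
Log2 fold change of IgA over vehicle mice for every gene of the library, in ITPK1-WT cells (horizontal) and ITPK1-KO cells (vertical). The 4 receptors (red) lie between 0.0039 and 0.061 in ITPK1-WT cells and between -0.015 and 0.058 in ITPK1-KO cells. All are inside the range of the other genes (grey). Tnfrsf1a is 16th from the highest of 76 genes in ITPK1-WT cells and 10th in ITPK1-KO cells, where Tnfrsf10b is 11th.

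ITPK1-KO and ITPK1-WT cells were also compared within each treatment. Most differences were small, and the one that recurred belonged to a single sgRNA, Tnfrsf1a sg-2. In IgA mice edgeR called 0 of 4 receptors, against 44.7% of all genes, and 1 passed at an unadjusted p under 0.05, against 51.3% of all genes. The DESeq2 Wald test and limma also called 0. That 1 was Tnfrsf1a, with a log2 fold change of -0.047 (95% CI -0.093 to -0.00094, edgeR adjusted p = 0.0890). Fas had 0.011, Tnfrsf10b -0.016 and Tnfrsf25 0.013. Scaled to non-targeting sgRNAs, Tnfrsf1a (-0.089, edgeR adjusted p = 0.00275) and Tnfrsf10b (-0.059, adjusted p = 0.0427) were lower in ITPK1-KO cells, where 48.7% of all genes were called.

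In vehicle mice 1 of 4 receptors differed, against 47.4% of all genes. Tnfrsf25 had 14216, 14026, 14353 and 14062 CPM in ITPK1-KO cells of mice 1 to 4, against 13652, 13816, 14034 and 13405 CPM in ITPK1-WT cells of the same mice. The ranges overlapped slightly, but ITPK1-KO cells were higher in 4 of 4 mice. The log2 fold change was 0.045 (SE 0.017, edgeR adjusted p = 0.0263), and the call was lost without mouse 1, 2 or 4, with values of 0.037 to 0.050 and adjusted p up to 0.131. Scaled to non-targeting sgRNAs it was 0.037 (adjusted p = 0.115). In IgA mice ITPK1-KO cells were higher in 2 of 4 mice.

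The remaining 3 receptors did not pass in vehicle mice. Tnfrsf10b had -0.047 (edgeR adjusted p = 0.0744), and lay lower in ITPK1-KO cells in 4 of 4 mice. It passed without mouse 1, 6 or 7, with adjusted p of 0.0460 to 0.0473. Fas had 0.035 (adjusted p = 0.125) and passed without mouse 1 (0.058, adjusted p = 0.0236). Tnfrsf1a had -0.039 (adjusted p = 0.159).

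Tnfrsf1a sg-2 was lower in ITPK1-KO cells under both treatments. In IgA mice 5 to 8 it had 3827, 4029, 3815 and 3753 CPM in ITPK1-KO cells, against 4436, 4295, 4172 and 4328 CPM in ITPK1-WT cells. The log2 fold change was -0.16 (SE 0.037, edgeR adjusted p = 0.000254). In vehicle mice 1 to 4 it had 3653, 3706, 3252 and 3523 CPM in ITPK1-KO cells, against 4186, 3884, 4379 and 4006 CPM in ITPK1-WT cells, with a log2 fold change of -0.21 (SE 0.038, adjusted p = 1.43e-06). The backgrounds did not overlap under either treatment, and all 8 mice had less in ITPK1-KO cells. Of all sgRNAs, 29.4% had no overlap between backgrounds in IgA mice and 31.7% in vehicle mice.

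That difference was already there before injection, when the ITPK1-KO library lay 0.18 below the ITPK1-WT library on the log2 scale, with no replicate. The 24 non-targeting sgRNAs ran from -0.20 to 0.11 in the same comparison of 2 libraries. The other sgRNAs against Tnfrsf1a did not follow it. In vehicle mice the log2 fold change was 0.053 with sg-1 (edgeR adjusted p = 0.250) and 0.10 with sg-3 (adjusted p = 0.146), and in IgA mice it was 0.017 with sg-1 and 0.041 with sg-3.

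Across all 12 sgRNAs, 1 was called in IgA mice, against 34.9% of all sgRNAs (2 against 32.9% when scaled to non-targeting sgRNAs), and 2 in vehicle mice, against 31.7%. The second in vehicle mice was Tnfrsf25 sg-2. It had 4937, 4974, 4866 and 4960.2 CPM in ITPK1-KO cells, against 4651, 4728, 4777 and 4558 CPM in ITPK1-WT cells, and ITPK1-KO cells were higher in 4 of 4 mice. Its log2 fold change was 0.079 (SE 0.031, edgeR adjusted p = 0.0428), lost without mouse 1, 2 or 4 (0.064 to 0.078, adjusted p up to 0.227). Before injection the ITPK1-KO library was 0.063 above the ITPK1-WT library for this sgRNA. Of the 12 sgRNAs, 9 differed in the same direction before injection and in vehicle mice. The same count over all sgRNAs was not made, so this is not shown to be particular to the receptors.

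**Figure D4:**
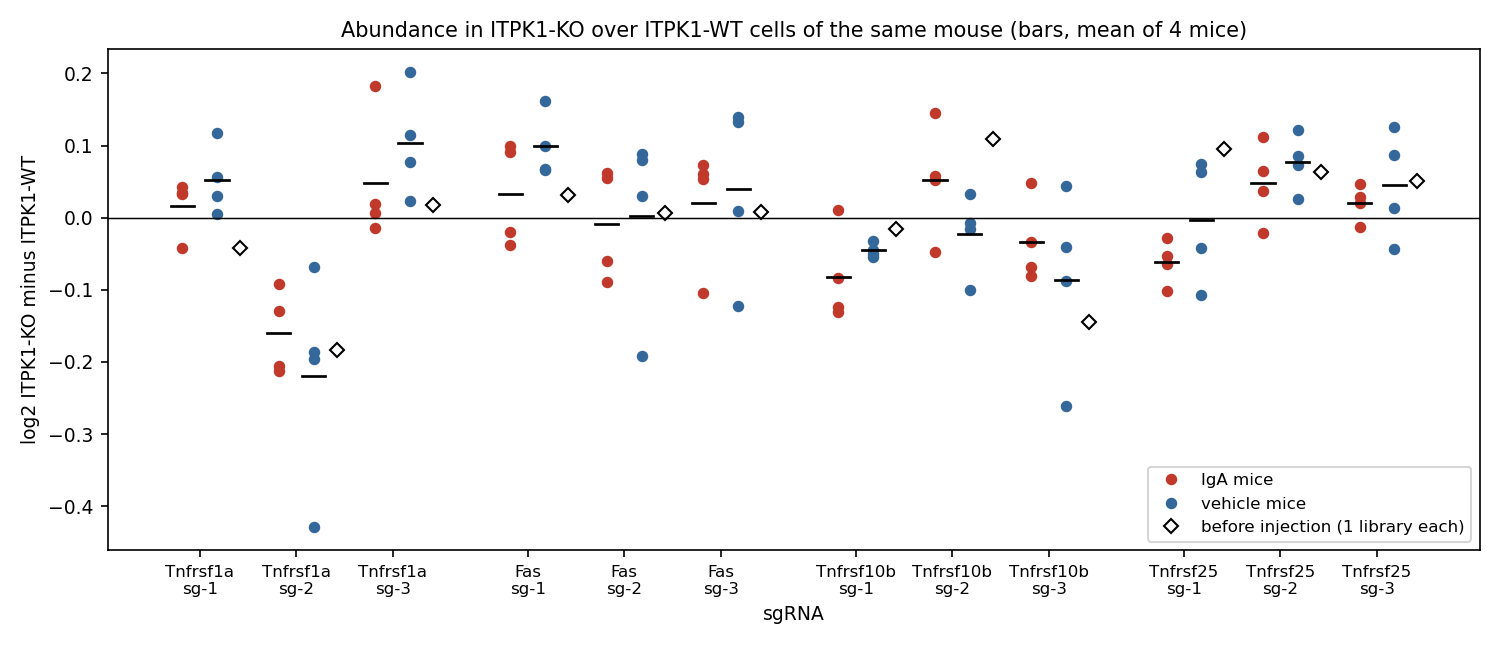
Log2 difference of normalised abundance, ITPK1-KO minus ITPK1-WT cells of the same mouse, for each sgRNA (points, mice; bars, mean of 4 mice), beside the difference of the 2 libraries made before injection (diamonds). Tnfrsf1a sg-2 lies below 0 in all 8 mice and at -0.18 before injection.

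Set against the libraries from before injection and the non-targeting sgRNAs of each library, the receptors moved by at most 0.137 on the log2 scale during the 16 h in the mouse, as means of 4 mice. The median log2 change over the 4 receptors was 0.023 in ITPK1-KO cells of IgA mice, against -0.0020 in those of vehicle mice. It was 0.117 in ITPK1-WT cells of IgA mice and 0.022 in ITPK1-WT cells of vehicle mice. The median of all 76 genes was also highest in ITPK1-WT cells of IgA mice, at 0.077, against 0.024 in ITPK1-WT cells of vehicle mice. The starting library of each background is a single measurement shared by all its mice, so these changes carry no test. The value for ITPK1-WT cells of IgA mice was 0.046 without the non-targeting reference.

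By gene, ITPK1-WT cells of IgA mice had changes of 0.137 ± 0.017 for Tnfrsf1a, 0.136 ± 0.046 for Fas, 0.097 ± 0.025 for Tnfrsf25 and 0.090 ± 0.054 for Tnfrsf10b (SD, n = 4). In ITPK1-WT cells of vehicle mice they were 0.017 ± 0.033 for Tnfrsf1a, 0.073 ± 0.040 for Fas, 0.026 ± 0.033 for Tnfrsf25 and 0.0069 ± 0.027 for Tnfrsf10b. Each receptor thus lay above 0 in every ITPK1-WT library of IgA mice on this scale. The median of all genes was also above 0 in this group, at 0.077, and the share of genes above 0 was not counted. Single non-targeting sgRNAs ran from -0.26 to 0.25 there, a range that holds the mean of every receptor. Lying above 0 is therefore not shown to be particular to the receptors. In ITPK1-KO cells of IgA mice the changes were 0.093 ± 0.021 for Tnfrsf1a, 0.052 ± 0.020 for Fas, -0.040 ± 0.012 for Tnfrsf25 and -0.0073 ± 0.013 for Tnfrsf10b. In ITPK1-KO cells of vehicle mice they were 0.026 ± 0.053 for Tnfrsf1a, 0.063 ± 0.042 for Fas, -0.030 ± 0.029 for Tnfrsf25 and -0.072 ± 0.039 for Tnfrsf10b. The receptors thus lay on both sides of 0 in ITPK1-KO cells, with Tnfrsf1a above 0 and Tnfrsf25 below 0 in every IgA mouse. The medians over the receptors given above hide this. Tnfrsf10b sg-2, called for IgA in ITPK1-KO cells, changed there by 0.020 ± 0.036 in IgA mice and by -0.13 ± 0.074 in vehicle mice. Tnfrsf1a sg-2, also called there, changed by 0.064 ± 0.043 in IgA mice and by -0.071 ± 0.083 in vehicle mice.

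The library targets further genes of the pathway, and some of these had larger called changes than the receptors. Of a list of 33 pathway genes, 17 are in the library, and no ligand is among them. In ITPK1-KO cells 2 of the 17 rose under IgA, 1 fell and 14 did not pass, while 13.2% of all 76 genes were called (6 higher and 4 lower). Those that rose were Cyld, which removes ubiquitin chains at TNF receptors (log2 fold change 0.19, SE 0.024, edgeR adjusted p = 3.35e-06), and Ltbr, the lymphotoxin beta receptor, which lacks a death domain (0.076, adjusted p = 0.0114). The one that fell was Ripk1, the kinase recruited by Tnfrsf1a (-0.26, SE 0.022, adjusted p = 5.38e-08). Scaled to non-targeting sgRNAs, these 3 kept their direction and call, and in all 4 of the 17 were called higher and 1 lower, while 18.4% of all genes were called.

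In ITPK1-WT cells 4 of the 17 rose, 3 fell and 10 did not pass, a share near the 36.8% of all 76 genes that were called (16 higher and 12 lower). Cyld (0.13), Spata2, which links Cyld to the receptor complex (0.12), Ltbr (0.090) and Ripk3, the kinase of necroptosis (0.082), rose. Fadd (-0.14), Ripk1 (-0.072) and Bid, which carries the signal of Casp8 to mitochondria (-0.061), fell. Scaled to non-targeting sgRNAs, 8 of the 17 were called higher and 1 lower, again near the 55.3% of all genes. Fadd remained lower at -0.073, whereas Ripk1 (-0.0035) and Bid (0.0068, now above 0) did not pass. Casp8 itself, the initiator caspase bound by Fadd, did not pass, with -0.0039 in ITPK1-KO cells (edgeR adjusted p = 0.904) and -0.032 in ITPK1-WT cells (adjusted p = 0.181). Fadd had -0.038 in ITPK1-KO cells (adjusted p = 0.460).

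Of the 17, only Ripk1 was called for a difference between the IgA effects of the backgrounds (-0.19, edgeR adjusted p = 5.86e-06), against 6.58% of all genes. Between ITPK1-KO and ITPK1-WT cells, 1 of the 17 was higher and 8 were lower in IgA mice, and 2 were higher and 8 lower in vehicle mice. Over all 76 genes 44.7% were called in IgA mice (15 higher and 19 lower) and 47.4% in vehicle mice (17 higher and 19 lower). Among them Bax, the pore former of mitochondrial apoptosis, was lower in ITPK1-KO cells under both treatments (-0.18 in IgA mice, -0.18 in vehicle mice).

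The library holds 6 further TNF receptors: Tnfrsf1b, Ltbr, Cd27, Tnfrsf8, Tnfrsf19 and Tnfrsf21. For the IgA effect Ltbr was the 1 of these called in either background. Tnfrsf21 also has a death domain but was not among the 4 members, and its values were looked up after those of the members were seen. It had a log2 fold change of 0.033 in ITPK1-KO cells (edgeR adjusted p = 0.311) and -0.017 in ITPK1-WT cells (adjusted p = 0.538).

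Pearson's r of log2 CPM was taken over the 8 recovered libraries of a background, IgA and vehicle mice together, as a description. It ranked the genes whose levels ran most like each receptor. In ITPK1-KO cells these were 4732429D16Rik (0.94) and Ifnar1 (0.91) for Tnfrsf1a and Spata2 (0.93) and Ltbr (0.84) for Tnfrsf10b. For Fas they were 4933439F11Rik (0.81) and Galnt5 (0.81), and for Tnfrsf25 Hoxa3 (0.87) and Commd4 (0.75). In ITPK1-WT cells they were Hspbap1 (0.90) and Bbc3 (0.87) for Tnfrsf1a and Spata2 (0.77) and Olfr1404 (0.75) for Tnfrsf10b. For Fas they were Mag (0.69) and Defb1 (0.68), and for Tnfrsf25 the nearest was Bax (0.69). Spata2 was thus nearest to Tnfrsf10b in both backgrounds. All values of a library share its depth and scaling, and levels that sum to a fixed total are not independent.

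In the authors' deposited table the 12 sgRNAs had log2 fold changes of -0.046 to 0.13 in ITPK1-KO cells and of -0.018 to 0.15 in ITPK1-WT cells. The authors' deposited table gives these sgRNAs no FDR under 0.519 in ITPK1-KO cells, where 12 of 252 sgRNAs are under 0.05, and none under 0.998 in ITPK1-WT cells, where none of the 252 is. By p-value, Tnfrsf10b sg-2 is 17th of 252 in the authors' deposited table for ITPK1-KO cells. In the authors' deposited values, 11 of the 12 lie above 0 in ITPK1-WT cells, and the median non-targeting sgRNA lies at -0.00013. The median over all sgRNAs lies at 0.055 there, so the library as a whole is shifted above 0. The share of all sgRNAs above 0 was not counted.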

How the data were processed

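The authors deposited whole read counts per sgRNA for 18 libraries. Reads that matched a library sgRNA exactly were kept and scored with MAGeCK RRA (version 0.5.6), per the series' text and the submitters' processing notes. Which aligner was used is not given in the sources used here. For each background there is also a MAGeCK table deposited by the authors, with a log2 fold change, p-value and FDR for each sgRNA. The 4 columns of joined per-sample values in those tables were not used. Treatments and cells sorted (another unit, a number of cells) come from the deposited legend of samples, per the file headers.

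The tests were run with edgeR 4.0.16 (R 4.3.3): a mean of at least 10 reads, TMM, glmQLFit and glmQLFTest, Benjamini-Hochberg adjustment over all 252 sgRNAs (251 in ITPK1-KO cells for IgA) or all 76 genes (counts summed over 3 sgRNAs), and a threshold of 0.05. SEs are the fold change divided by the square root of F. IgA effects were fitted within each background. Comparisons of backgrounds and the interaction came from 1 fit of the 16 recovered libraries. Alternatives used limma 3.58.1 and DESeq2 1.42.0. Changes from before injection added 0.5 reads and subtracted the median non-targeting sgRNA. The procedure was tested on simulated data with seeded changes larger than those of the receptor genes, so that test does not show its power at their size.

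The members and lists were chosen with earlier results of these data known. All 4 members and each of their sgRNAs are named. Of the pathway list, genes past the threshold for IgA or the interaction, and Fadd, Casp8, Ripk1 and Cyld, are named, plus the 2 most alike genes per member, of which 1 is not reported here. Bax and the other TNF receptors were added later. Names were matched to RefSeq (GRCm38.p6). Libraries of the same number come from the same mouse, so the mouse pairs backgrounds. Over the 238 sgRNAs whose mean reached 500 reads, the correlation of their deviations ran from -0.083 to 0.26. Libraries of a group differed by more than sampling noise in every pair. Reads carry no molecular identifiers, so read numbers give only a lower limit of the error.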

Additional observations from a re-analysis of the deposited data

Results flagged for a closer look

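Of 64 groups of 4 libraries (the 4 receptors and their 12 sgRNAs in 4 groups each), 3 held a library far from the other 3, a rate that chance gives in about 1 group of 20. Fas in ITPK1-WT cells of IgA mice had 15086 CPM in mouse 5, below 15681 to 15762 CPM in mice 6 to 8. Fas sg-3 in the same group had 6924 CPM in mouse 6, above 6335 to 6394 CPM in mice 5, 7 and 8. Tnfrsf10b sg-2 in ITPK1-KO cells of vehicle mice had 3808 CPM in mouse 4, below 4106 to 4137 CPM in mice 1 to 3, and its IgA effect kept its call without that mouse.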

How the results depend on the processing

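For the receptors, scaling to the non-targeting sgRNAs moved more calls than any other alternative. It called 7 of 12 sgRNAs and 4 of 4 genes for IgA in ITPK1-WT cells (0 and 1 on the library scale) and 2 genes for IgA in ITPK1-KO cells (0). Between backgrounds it called 2 sgRNAs and 2 genes in IgA mice (1 and 0) and 1 sgRNA and 0 genes in vehicle mice (2 and 1). The DESeq2 Wald test called 2 genes for IgA in ITPK1-KO cells and 2 sgRNAs between backgrounds in IgA mice. For IgA in ITPK1-WT cells, limma and the series of sample numbers as a covariate each called 0 genes. With that covariate 1 sgRNA was called for IgA in ITPK1-KO cells. Over the whole library it called 17 sgRNAs and 10 genes in ITPK1-WT cells (70 and 28 without it) and 15 sgRNAs and 5 genes in ITPK1-KO cells (26 and 10 without it). This covariate leaves 1 IgA mouse to set against the vehicle mice. The cause was not tested. With each mouse left out in turn, members called ran from 0 to 1 sgRNAs and 0 to 1 genes for IgA in ITPK1-WT cells, and from 1 to 2 sgRNAs and 0 to 1 genes in ITPK1-KO cells. Between backgrounds they ran from 1 to 2 sgRNAs and 0 genes in IgA mice, from 1 to 2 sgRNAs and 0 to 2 genes in vehicle mice, and stayed at 0 for the interaction. Without mouse 7 the calls over the whole library for IgA in ITPK1-WT cells fell to 45 sgRNAs and 17 genes, and without mouse 6 the interaction was called for 17 sgRNAs in place of 10. The median change from before injection in ITPK1-WT cells of IgA mice was 0.046 without the non-targeting reference. With the mouse as a block, which pairs the backgrounds, members called stayed at 1 sgRNA and 0 genes in IgA mice, 2 sgRNAs and 1 gene in vehicle mice, and 0 for the interaction. Of 1172 alternative values of single members, 18 lost and 27 gained a call and none reversed one, while 57 changed sign with no call on either side. At 638 to 5593 reads per sgRNA, changes of a few percent were at the limit of detection.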
